A study of Mus musculus with 59 samples.

Results

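The genes of the brain's blood vessels were followed through the prefrontal cortex of young mice with and without a Dyrk1a mutation, after exposure to lithium, fluoxetine or vehicle. The set holds 32 genes, named by symbol as markers of the endothelium at the blood-brain barrier, of pericytes and of vascular smooth muscle. All 32 were found among the 18088 genes of the deposited table, and all 32 passed the filter on low values. Of them, 23 are endothelial genes and 9 are genes of mural cells, the cells that wrap the vessel wall. RNA was sequenced from 59 C57BL/6J mice: 20 given lithium, 19 given fluoxetine and 20 given vehicle. Of these, 30 were Dyrk1a+/I48X, heterozygous for a mutated Dyrk1a allele, and 29 were wild type. Within each genotype and treatment there were 5 females and 5 males, except that the wild-type fluoxetine group had 4 males. The pups took in the drug through maternal milk between postnatal days 3 and 24 and were examined on day 25. The labels do not name litters. Pups of 1 dam share its treatment, so drug and litter cannot be told apart, and the p-values below rest on the spread among these mice alone.

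Brain endothelial cells seal the vessel with tight junctions, carry glucose, lactate, lipids and organic anions across it with dedicated transporters, and pump many drugs back into the blood. Their growth and survival depend on the receptors for vascular endothelial growth factor and for the angiopoietins. Pericytes, recruited through the PDGF receptor beta, cover the capillaries and help to keep the barrier closed, while smooth muscle cells give arterioles their tone.

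The recovered library totals ran from 24391022 to 33842466 counts, with a median of 27601196. No member had a value of 0 in any library. Mean levels over the 59 libraries ran from 152 normalised counts for Sox18 to 10229 for Bsg; genes of different length cannot be ranked on this scale. The spread between mice of 1 group, as an SD on the log2 scale, was 0.069 to 0.283 over the members, with a median of 0.193, against 0.014 to 0.117 from counting alone. All defining vascular markers were thus present, but so were those of other tissue. All 15 olfactory bulb markers, all 12 leptomeningeal fibroblast markers and all 6 blood genes were detected. Summed olfactory bulb counts varied widely between libraries, over the range 3273 to 62391. A pair of libraries stood apart, replicates 3 and 4 of the heterozygous fluoxetine males. Calls of members that were lost without them are stated as lost. Calls of genes outside the member set were not checked without them. Differences that did not pass are mostly given with them only, among them Ocln, Slco1a4 and Rgs5 with fluoxetine. For these genes both libraries lay below all others. Dyrk1a itself, over the whole gene, was 0.06 ± 0.05 higher on the log2 scale in heterozygous than in wild-type mice under vehicle (limma, adjusted p = 0.451) and 0.13 ± 0.03 higher over all treatments (limma, adjusted p = 0.00768). A signal for the whole gene does not separate the mutated from the normal transcript.

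The clearest drug responses were a rise of the endothelial transcription factor Sox18 and a fall of the monocarboxylate carrier Slc16a1, both seen with lithium and with fluoxetine when the genotypes were averaged. Sox18 lies on chromosome 2 at 181669836 to 181671640, minus strand, in GRCm38, and encodes an SRY-box factor known for its part in blood and lymph vessel development. Slc16a1, at 104638668 to 104658462 on the plus strand of chromosome 3, encodes the proton-linked carrier MCT1, which moves lactate and ketone bodies across the endothelium and is also made by glial cells. With lithium, limma called 2 of 32 members, against 2.12% of all 17901 genes tested; 1 was higher (1.16% of all genes) and 1 lower (0.966%). With fluoxetine it called 5 of 32, against 3.09% of all genes; 1 was higher (1.45% of all genes) and 4 were lower (1.64%). Calls here are adjusted p-values under 0.05, by the Benjamini-Hochberg method over all genes tested. Both comparisons share the 20 vehicle mice. In bulk tissue, fewer cells of a type and less RNA per cell cannot be told apart, which applies to every result below.

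Normalised Sox18 counts in heterozygous mice had a lowest, median and highest value of 128, 159 and 200 with lithium, of 100.1, 158 and 213 with fluoxetine, and of 108, 136 and 153 with vehicle. In wild-type mice they were 149, 184 and 216 with lithium, 130.2, 168 and 232 with fluoxetine, and 101, 118 and 154 with vehicle. The drug groups reached well above their vehicle group in both genotypes, but their lower ends overlapped it, by the least in wild-type lithium mice. Over both genotypes Sox18 averaged 171 ± 23.7 normalised counts with lithium and 125 ± 16.7 with vehicle (SD, n = 20 each). The log2 difference was 0.44 ± 0.07 (SE), with a 95% interval of 0.30 to 0.58 (limma, adjusted p = 5.6e-05), and 20 of 20 lithium libraries lay above the vehicle mean of their own genotype and sex. With fluoxetine it averaged 159.9 ± 31.5 (SD, n = 19), 0.34 ± 0.07 above vehicle on the log2 scale (limma, adjusted p = 0.00282), with 17 of 19 libraries above the matched vehicle mean. These calls held in each of the 59 refits that left out 1 library and under all 13 other settings tried.

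Slc16a1 had a lowest, median and highest value in heterozygous mice of 1330, 1515 and 1840 normalised counts with lithium, of 1108, 1486 and 1759 with fluoxetine, and of 1359, 1711 and 1887 with vehicle. In wild-type mice the same values were 1289, 1448 and 1637 with lithium, 1185, 1354 and 1602 with fluoxetine, and 1610, 1740 and 2419 with vehicle. All 9 wild-type fluoxetine libraries thus lay below all 10 wild-type vehicle libraries, while the lithium and vehicle ranges touched at their ends; in heterozygous mice both drug ranges overlapped vehicle over most of their width. Over both genotypes it averaged 1498 ± 129 with lithium, 1442 ± 154 with fluoxetine and 1738 ± 228 with vehicle (SD, n = 20, 19 and 20). The log2 difference from vehicle was -0.21 ± 0.04 with lithium (95% interval -0.29 to -0.12; limma, adjusted p = 0.00264) and -0.27 ± 0.04 with fluoxetine (-0.35 to -0.18; limma, adjusted p = 0.000144). Of the lithium libraries 17 of 20, and of the fluoxetine libraries 19 of 19, lay below the matched vehicle mean. The lithium libraries that did not were all heterozygous females. That group had 1840, 1481, 1582, 1457 and 1524 with lithium, against 1541, 1779, 1518, 1400 and 1359 with vehicle, so no fall was seen there. Heterozygous males had 1506, 1552, 1472, 1714 and 1330, against 1745, 1845, 1887, 1767 and 1677. The Slc16a1 calls over both genotypes, too, held in all 59 leave-one-out refits and under the 13 other settings.

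**Figure D1:**
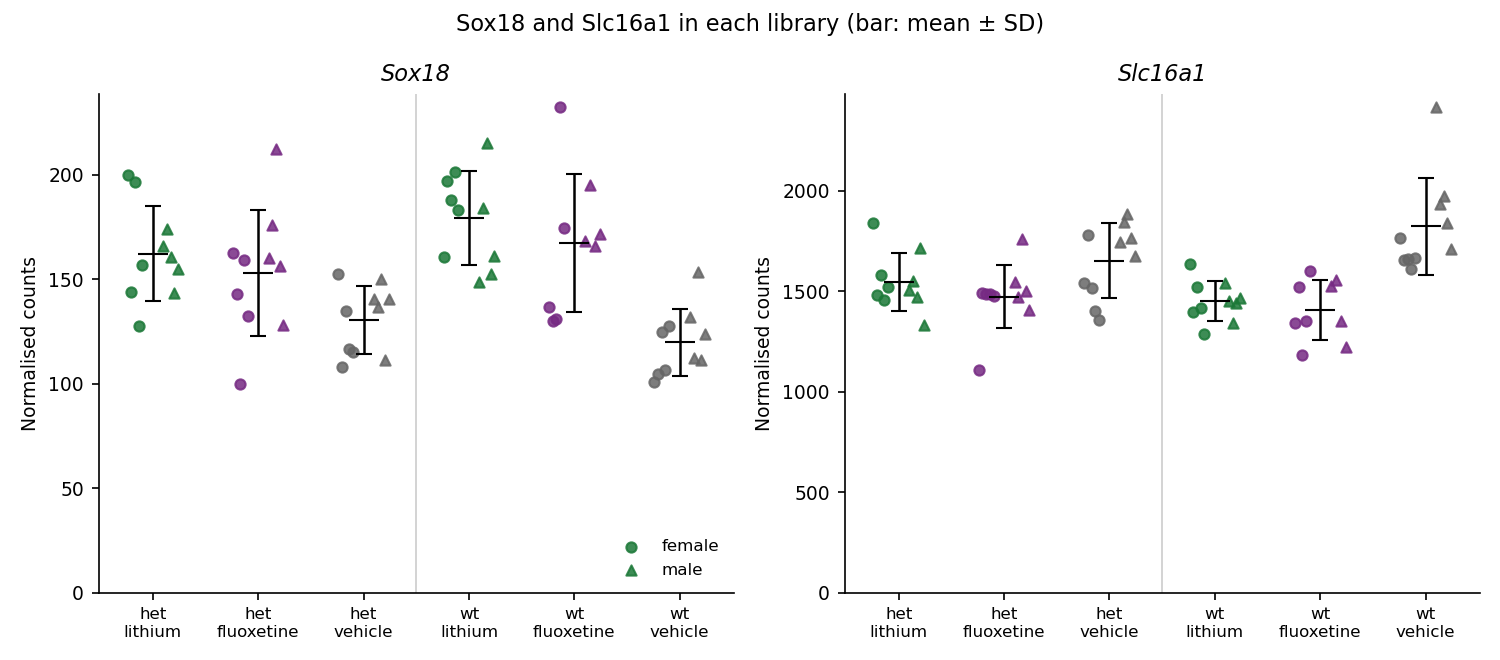
Normalised counts (y axis) of Sox18 and Slc16a1 in each library, by genotype and treatment (x axis); circles are females, triangles males, and bars give the mean and SD. The means of Sox18 sit higher and those of Slc16a1 lower in the lithium and fluoxetine groups than in the vehicle group of the same genotype; in wild-type mice Sox18 averaged 179 with lithium, 167 with fluoxetine and 119.8 with vehicle.

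Taken by genotype, both genes passed the threshold in wild-type mice and neither did in heterozygous mice. In wild-type mice limma called these 2 members with lithium and again with fluoxetine, against 0.162% and 0.447% of all genes. Sox18 was 0.58 ± 0.10 higher with lithium (adjusted p = 0.00236) and 0.47 ± 0.10 higher with fluoxetine (adjusted p = 0.0193), on the log2 scale. The fluoxetine call for Sox18 was lost without wild-type fluoxetine female 4 or male 4. Slc16a1 was lower by -0.32 ± 0.06 with lithium (adjusted p = 0.00618) and by -0.37 ± 0.06 with fluoxetine (adjusted p = 0.00147). In heterozygous mice limma called 0 of 32 members with lithium, against 0.497% of all genes, with 4 at an unadjusted p under 0.05 and 0 called by edgeR. There the Sox18 differences were 0.31 ± 0.10 with lithium (limma, adjusted p = 0.172) and 0.21 ± 0.10 with fluoxetine (adjusted p = 0.173). Those of Slc16a1 were -0.09 ± 0.06 (adjusted p = 0.628) and -0.16 ± 0.06 (adjusted p = 0.0918).

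The difference between genotypes in drug response was tested directly and no member passed. For the lithium response limma called 0 of 32 members and 0 of 17901 genes (0%), with 1 member and 497 genes at an unadjusted p under 0.05, and edgeR called 0 members. For the fluoxetine response it again called 0 of 32 members and 0% of genes, with 4 members and 3917 genes at an unadjusted p under 0.05; edgeR called 0 members. The heterozygous minus wild-type difference in the Sox18 response was -0.27 ± 0.14 with lithium (95% interval -0.55 to 0.01) and -0.26 ± 0.14 with fluoxetine (-0.54 to 0.02). For Slc16a1 it was 0.23 ± 0.09 with lithium (0.06 to 0.40; limma, adjusted p = 0.9998) and 0.21 ± 0.09 with fluoxetine (0.03 to 0.38; limma, adjusted p = 0.165). The other members at an unadjusted p under 0.05 for fluoxetine were the pericyte matrix gene Vtn, -0.43 ± 0.16, the VEGF receptor Flt1, 0.22 ± 0.09, and the potassium channel subunit gene Abcc9, 0.28 ± 0.13; their adjusted p-values by limma were 0.133, 0.152 and 0.193.

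Over both genotypes 3 endothelial receptor genes were also lower with fluoxetine. Kdr encodes VEGF receptor 2, the main signalling receptor for vascular endothelial growth factor, and Tek encodes the angiopoietin receptor Tie2. Eng encodes endoglin, a co-receptor for ligands of the TGF-beta family. Kdr had a lowest, median and highest value of 450.0, 571 and 823 normalised counts with fluoxetine, against 560.5, 667 and 909 with vehicle. The ranges overlapped, and the fluoxetine maximum came from heterozygous male 4. Kdr averaged 582 ± 79.6 with fluoxetine and 674 ± 77.6 with vehicle (SD, n = 19 and 20), a log2 difference of -0.22 ± 0.05 (limma, adjusted p = 0.0153), with 18 of 19 fluoxetine libraries below the matched vehicle mean. This call held in all leave-one-out refits and other settings.

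Eng ran over 511, 684 and 750.4 normalised counts (lowest, median, highest) with fluoxetine, against 627, 753 and 882 with vehicle. The groups overlapped, with 16 of 19 fluoxetine libraries below the matched vehicle mean. Its averages were 666 ± 64.8 and 749 ± 71.0, a log2 difference of -0.17 ± 0.04 (limma, adjusted p = 0.00707). With the olfactory bulb marker mean as a covariate and without the 2 libraries that stood apart, the difference was -0.10 and the call was lost (limma, adjusted p = 0.0643). This combined setting was not planned beforehand. Eng overlaps Fpgs in the annotation; the labels do not say whether counting used strand.

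Tek ran over 217, 433 and 508 normalised counts with fluoxetine, against 433, 469.8 and 606 with vehicle. The lowest fluoxetine values, 217 and 275, came from heterozygous males 3 and 4, and 15 of 19 libraries lay below the matched vehicle mean. It averaged 424 ± 73.1 with fluoxetine and 485 ± 45.6 with vehicle, a log2 difference of -0.21 ± 0.06 (limma, adjusted p = 0.0448). The Tek call was lost in 25 of 59 leave-one-out refits and under 6 other settings, among them the fit without those 2 males. Without them limma still called 5 members over both genotypes, Sox18, Slc16a1, Eng, Kdr and Ly6a, with Ly6a higher. Summed olfactory bulb counts ran over 4902, 24072 and 41761 with fluoxetine, against 3488, 14687 and 62391 with vehicle; 0 of 15 markers were called by limma and 0 by edgeR, 5 had an unadjusted p under 0.05, and their median difference was 0.63. With this list as a covariate, 10 members were called, 7 of them lower.

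Within heterozygous mice fluoxetine changed 2 of 32 members, against 4.27% of all genes, and 13 members had an unadjusted p under 0.05. Eng fell to 642 ± 68.9 normalised counts, against 754 ± 86.9 with vehicle (SD, n = 10 each), a log2 difference of -0.23 ± 0.05 (limma, adjusted p = 0.0113). Ly6a, which encodes the surface antigen Sca-1, averaged 399.9 ± 49.3 with fluoxetine and 345 ± 33.9 with vehicle, 0.21 ± 0.06 higher (limma, adjusted p = 0.0458). Eng was lower in 9 of 10 fluoxetine libraries than the matched vehicle mean, and Ly6a higher in 8 of 10. The Eng call was lost when only the compared groups were fitted and without males 3 and 4. The Ly6a call was lost when only the compared groups were fitted and in 15 leave-one-out refits. Reads of Ly6a and of the near paralog Ly6c1 may have been split in counting.

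The promoter windows of the 4 genes that were lower with fluoxetine are printed below, because these members moved in the same direction. Each runs from 250 bases before to 50 bases after the RefSeq gene start in GRCm38.p6, 5′ to 3′ on the gene's own strand. Capitals mark matches on either strand of 3 motifs searched: ACAAT, a core of SOX factor sites (ATTGT on the other strand), CTTTGA, a core of TCF/LEF sites (TCAAAG), and CCGGAA, a core of ETS factor sites (TTCCGG). The motifs share no overlapping match in these windows. The windows are chr3:104638414-104638713 (plus strand) for Slc16a1, chr5:75978406-75978705 (minus) for Kdr, chr2:32646345-32646644 (plus) for Eng and chr4:94739039-94739338 (plus) for Tek.
Slc16a1: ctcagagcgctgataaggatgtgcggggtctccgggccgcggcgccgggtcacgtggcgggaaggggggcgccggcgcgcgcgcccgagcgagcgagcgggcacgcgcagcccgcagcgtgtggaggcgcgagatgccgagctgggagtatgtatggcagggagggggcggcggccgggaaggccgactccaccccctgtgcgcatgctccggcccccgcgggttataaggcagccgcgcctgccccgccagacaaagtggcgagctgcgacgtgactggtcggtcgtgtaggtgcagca
Kdr: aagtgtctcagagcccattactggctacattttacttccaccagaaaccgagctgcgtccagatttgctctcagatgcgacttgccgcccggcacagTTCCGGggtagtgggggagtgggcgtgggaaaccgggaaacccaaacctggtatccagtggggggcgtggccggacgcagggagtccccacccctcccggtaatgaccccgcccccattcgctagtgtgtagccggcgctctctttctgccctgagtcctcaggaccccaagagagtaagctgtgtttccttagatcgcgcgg
Eng: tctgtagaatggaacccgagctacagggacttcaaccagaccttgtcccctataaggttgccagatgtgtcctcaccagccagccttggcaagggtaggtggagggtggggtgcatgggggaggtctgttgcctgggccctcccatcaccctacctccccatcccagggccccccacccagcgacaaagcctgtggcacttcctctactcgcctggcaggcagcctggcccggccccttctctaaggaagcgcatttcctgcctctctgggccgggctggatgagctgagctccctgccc
Tek: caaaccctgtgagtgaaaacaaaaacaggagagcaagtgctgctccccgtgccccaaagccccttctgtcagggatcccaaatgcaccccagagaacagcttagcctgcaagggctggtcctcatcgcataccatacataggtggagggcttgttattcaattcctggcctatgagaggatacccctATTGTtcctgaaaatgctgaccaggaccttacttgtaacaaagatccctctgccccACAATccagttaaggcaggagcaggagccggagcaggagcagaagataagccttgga
The Kdr window held 1 CCGGAA match, on the other strand, and the Tek window held 2 ACAAT matches, 1 on each strand, while those of Slc16a1 and Eng held none of the 3 motifs. Of the 32 members, 22 had a window in the table, 26 windows in all; Sox18, Tagln and Myh11 were among the unmatched. ACAAT occurred in any window of 4 of these 22 members, CTTTGA of 4 and CCGGAA of 2. Of all 32851 windows, taken singly, 31.0%, 16.0% and 14.9% held each. The first figures count genes and the second count windows, so they are not on the same unit. A match is a run of letters, not a shown binding site.

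Most vascular genes did not pass with either drug. Over both genotypes the median log2 difference of the 32 members was -0.03 with lithium (10 positive, 22 negative) and -0.05 with fluoxetine (10 positive, 22 negative), against medians of 0.002 and 0.003 over all genes. Among the endothelial junction and surface genes, limma called 0 of 11 with lithium and 1 of 11, Eng, with fluoxetine; with lithium 2 had an unadjusted p under 0.05 and edgeR called 0. Cldn5, the main claudin of the barrier's tight junctions, had a lowest, median and highest value of 683, 913 and 1051 normalised counts with lithium, against 797, 1006 and 1415 with vehicle. The groups overlapped, although 18 of 20 lithium libraries lay below the matched vehicle mean; the log2 difference was -0.19 ± 0.06 (limma, adjusted p = 0.107). With fluoxetine the Cldn5 difference was -0.17 ± 0.06 (limma, adjusted p = 0.113). Ocln, the tight-junction protein occludin, differed by -0.17 ± 0.06 with fluoxetine (adjusted p = 0.0829) and by -0.01 ± 0.05 with lithium (adjusted p = 0.96). Ly6a differed by 0.08 ± 0.04 with lithium (adjusted p = 0.463) and 0.14 ± 0.05 with fluoxetine (adjusted p = 0.0742). Values for the adherens-junction cadherin Cdh5, the adhesion molecules Pecam1 and Esam, the sialomucin Emcn, the secreted Egfl7, and Ly6c1 and Itm2a lay between -0.15 and 0.11 for both drugs, with adjusted p-values of 0.139 or more.

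Among the 6 transporter and carrier genes only Slc16a1 was called. Slco1a4, an organic anion transporter, differed by -0.20 ± 0.06 with fluoxetine (limma, adjusted p = 0.0559), and Slc2a1, the glucose transporter GLUT1, by 0.17 ± 0.06 (adjusted p = 0.113). Mfsd2a, the lysolipid transporter that limits transcytosis at the barrier, differed by 0.14 ± 0.06 with lithium (adjusted p = 0.229). Values for the efflux pump Abcb1a and for Bsg, the chaperone of monocarboxylate carriers, lay between -0.08 and 0.04, with adjusted p-values of 0.153 or more. Sox17, the other SRY-box factor, averaged 192 ± 35.8 normalised counts with lithium, 168 ± 36.0 with fluoxetine and 174 ± 28.5 with vehicle; the log2 differences were 0.14 ± 0.08 (limma, adjusted p = 0.459) and -0.06 ± 0.08 (adjusted p = 0.737). Of the other receptor kinases, Flt1, VEGF receptor 1, differed by 0.07 ± 0.04 with lithium and 0.00 ± 0.04 with fluoxetine, and Tie1, the partner of Tie2, by -0.07 ± 0.06 and -0.12 ± 0.06.

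None of the 6 pericyte genes and none of the 3 smooth muscle genes passed with either drug in the main limma fit. At an unadjusted p under 0.05 there were 3 of these 9 mural members with lithium and 1 with fluoxetine, and edgeR called 0 with either drug. Rgs5, a regulator of G-protein signalling abundant in pericytes, differed by -0.22 ± 0.07 with fluoxetine (limma, adjusted p = 0.0524). It was called lower with a filter of 100, the replicate block or either tissue-marker covariate, but not without the 2 libraries that stood apart. Wild-type mice, which do not include those libraries, averaged 3853 ± 309 with fluoxetine and 4653 ± 650 with vehicle. Heterozygous mice averaged 3771 ± 879 and 4189 ± 593 (SD). The wild-type fall was called with array weights, with only the compared groups and without the 2 libraries. The PDGF receptor Pdgfrb, Abcc9, Vtn, the receptor Notch3 and the aminopeptidase Anpep ran from -0.10 to 0.07 over both drugs. Acta2, smooth muscle actin, had a lowest, median and highest value of 230.1, 326 and 417 normalised counts with lithium, against 248, 392.5 and 493 with vehicle. Most of that range was shared, yet 18 of 20 lithium libraries lay below the matched vehicle mean; the log2 difference was -0.23 ± 0.08 (limma, adjusted p = 0.131). Tagln, the actin-binding protein SM22, differed by -0.23 ± 0.09 (adjusted p = 0.182) and Myh11, smooth muscle myosin, by -0.10 ± 0.06 (adjusted p = 0.489). With the olfactory bulb covariate and without the 2 libraries that stood apart, a setting not planned beforehand, limma called 6 members with lithium: Sox18 higher, and Slc16a1, Cldn5, Tek, Acta2 and Tagln lower. Summed counts of the blood genes were 17650.1, 22498 and 40422 (lowest, median, highest) with lithium and 11868, 18636 and 28807 with vehicle, with 0 of 6 called by limma, 5 at an unadjusted p under 0.05, 0 called by edgeR and a median difference of 0.53. Their part in the lithium results was not tested.

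**Figure D2:**
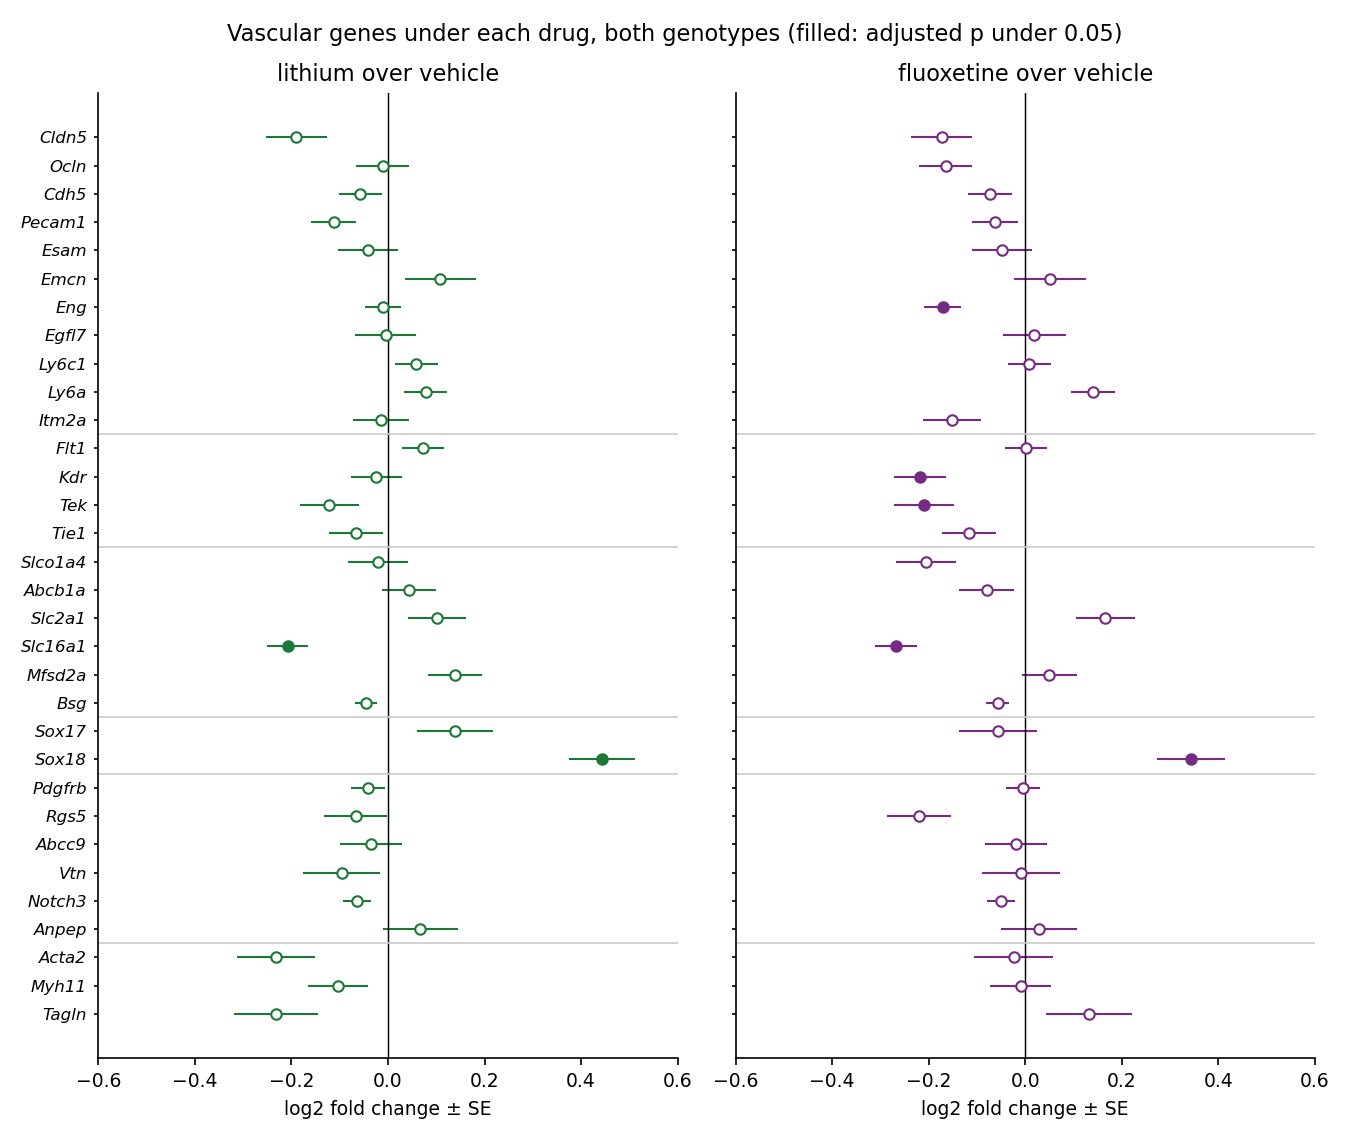
Log2 difference from vehicle over both genotypes (x axis, with SE) for the 32 members grouped by role, lithium on the left and fluoxetine on the right; filled points have an adjusted p under 0.05 (limma). Sox18 lies to the right of 0 and Slc16a1 to the left in both panels, while Eng, Kdr and Tek are filled with fluoxetine but not with lithium.

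A direct comparison of lithium with fluoxetine, over both genotypes, separated 3 of 32 members, against 6.58% of all genes; this comparison was added after the data had been seen. Eng averaged 743 ± 53.9 normalised counts with lithium and 666 ± 64.8 with fluoxetine (SD, n = 20 and 19), 0.16 ± 0.04 higher on the log2 scale (limma, adjusted p = 0.00907), with 18 of 20 lithium libraries above the matched fluoxetine mean. Kdr averaged 662 ± 61.2 with lithium and 582 ± 79.6 with fluoxetine, 0.19 ± 0.05 higher (limma, adjusted p = 0.0224). Tagln ran over 139, 188 and 253 normalised counts (lowest, median, highest) with lithium, against 166, 229 and 557 with fluoxetine. The highest Tagln value, 557, came from heterozygous fluoxetine male 3. Tagln was 0.36 lower with lithium on the log2 scale, a difference of -0.36 ± 0.09 (limma, adjusted p = 0.011), and stayed called without males 3 and 4. The Eng call was lost with the olfactory bulb covariate and without those males (limma, adjusted p = 0.149). Sox18 and Slc16a1 did not pass between the drugs: the differences were 0.10 ± 0.07 (95% interval -0.04 to 0.24) and 0.06 ± 0.04 (-0.03 to 0.15).

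Between genotypes no member passed when the sexes were averaged. Under vehicle limma called 0 of 32 members, against 13.1% of all genes; 3 members had an unadjusted p under 0.05 and edgeR called 0. Those 3 were Ly6a, 345 ± 33.9 normalised counts in heterozygous mice, against 389 ± 40.6 in wild-type mice (10 mice each, SD; log2 difference -0.17 ± 0.06; limma, adjusted p = 0.0569), Slc16a1 (-0.14 ± 0.06, adjusted p = 0.0972) and Flt1 (-0.13 ± 0.06, adjusted p = 0.137). Without the 2 libraries that stood apart, which are in neither group, Ly6a passed with the same difference (adjusted p = 0.0336), through the shared estimate of the spread. The members' median difference was -0.04, with 9 positive and 23 negative, against -0.002 and 8850 positive and 9051 negative over all genes. Under lithium and under fluoxetine 0 members were called, against 0.0112% of all genes in each case; 0 and 5 members had an unadjusted p under 0.05, and edgeR called 0 in both.

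Over all treatments limma again called 0 of 32 members, against 21.4% of all genes, while 6 had an unadjusted p under 0.05 and edgeR called 1, Pdgfrb. Pdgfrb averaged 713 ± 88.5 normalised counts in 30 heterozygous and 677 ± 33.1 in 29 wild-type mice, a log2 difference of 0.07 ± 0.03 (limma, adjusted p = 0.0809). Its highest values, 1079 and 828, came from heterozygous fluoxetine males 3 and 4, against at most 814 in the other libraries. The edgeR call was not tested without them. Tie1 differed by -0.10 ± 0.05 (adjusted p = 0.0969) and Bsg by -0.04 ± 0.02 (adjusted p = 0.104).

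Splitting the vehicle mice by sex gave a different picture in males. In vehicle males limma called 5 of 32 members, against 36.7% of all genes; 4 were lower (20% of all genes) and 1 higher (16.7%) in heterozygous mice. In vehicle females it called 0, with 1 member at an unadjusted p under 0.05, 0% of all genes called and 0 members called by edgeR. The share in males is below that of all genes. Egfl7, an endothelial matrix protein that guides vessel sprouts, had 671, 521, 429, 391 and 537 normalised counts in heterozygous males, against 835, 661, 616, 695 and 623 in wild-type males. Apart from the highest heterozygous value, the heterozygous males were all below the wild-type males; the log2 difference was -0.44 ± 0.13 (limma, adjusted p = 0.00546). Flt1 had 1465, 1462, 1291, 1171 and 1215 in heterozygous males, against 1800, 1461, 1839, 1620.2 and 1413 in wild-type males. The groups overlapped between 1413 and 1465, and the difference was -0.30 ± 0.09 (limma, adjusted p = 0.00576).

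Vtn, vitronectin from pericytes, was the member that was higher: it had 1437, 1926, 2596, 2091 and 2223 normalised counts in heterozygous males, against 1643, 1337, 1492, 1551 and 1255 in wild-type males. Only heterozygous male 1 fell within the wild-type range, and the difference was 0.48 ± 0.16 (limma, adjusted p = 0.0161). Ly6a averaged 336 ± 25.3 in heterozygous and 403 ± 35.9 in wild-type males, a difference of -0.26 ± 0.09 (limma, adjusted p = 0.0209), and Abcc9, the sulfonylurea receptor subunit of pericyte potassium channels, 255 ± 51.5 and 320.1 ± 39.5 (-0.34 ± 0.13; limma, adjusted p = 0.0317). In vehicle females the corresponding means were 736 ± 118 in heterozygous and 644 ± 93.0 in wild-type mice for Egfl7, 1510.4 ± 59.4 and 1465 ± 62.2 for Flt1, and 1692 ± 192 and 1781 ± 417 for Vtn. The male minus female difference of the genotype effect was -0.63 ± 0.18 for Egfl7 (limma, adjusted p = 0.0193) and -0.34 ± 0.12 for Flt1 (limma, adjusted p = 0.0465); these 2 of 32 members passed, against 16% of all genes.

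Markers of other tissue differed between the same males. All 15 olfactory bulb markers were called higher in heterozygous males by limma, with a median log2 difference of 2.87. Their summed counts were 12888 to 62391 in heterozygous males and 3488 to 8847 in wild-type males, with no overlap, and 7 of 8 excitatory neuron markers were called lower (median -0.67). Of 5 choroid plexus markers, the water channel gene Aqp1 (2.60, limma, adjusted p = 0.00122) and Clic6 (1.96, limma, adjusted p = 0.00813) were higher in heterozygous males, and both also passed for male minus female. The others were not called: Ttr differed by 0.81 (limma, adjusted p = 0.538), Kl by 0.29 (adjusted p = 0.585) and Folr1 by -0.61 (adjusted p = 0.487). In these males the genotype and the bulb markers cannot be told apart, since the marker sums did not overlap. With the olfactory bulb marker mean as a covariate limma called 0 members in vehicle males and 0 for the difference between the sexes, with 1 and 0 at an unadjusted p under 0.05. A covariate that differs this much between the genotypes takes up the genotype difference as well, so the lost calls do not separate one from the other. Of the single calls, Abcc9 was lost in 5 leave-one-out refits, Ly6a in 2 and Vtn in 1. With the leptomeningeal fibroblast marker mean as a covariate Vtn and Abcc9 were lost, while Slco1a4 and Abcb1a were called lower, and Abcc9 was also lost when only the compared groups were fitted. The call for the difference between the sexes was lost in 3 refits for Egfl7 and in 13 for Flt1, and under 4 and 7 of the 13 other settings. Apart from genotype, males and females differed in 0 members over all groups by limma, against 0.156% of all genes, with 1 at an unadjusted p under 0.05, Slc16a1, and 0 called by edgeR.

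**Figure D3:**
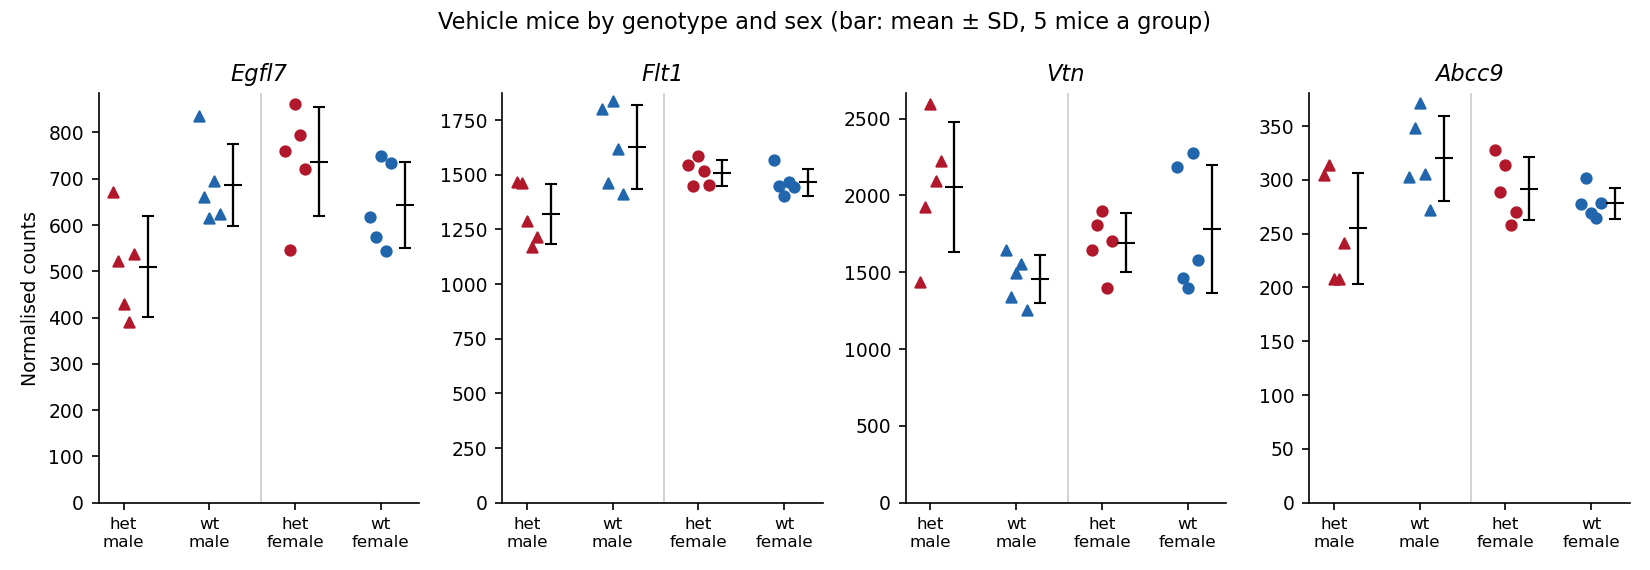
Normalised counts (y axis) of Egfl7, Flt1, Vtn and Abcc9 in the vehicle mice, by sex and genotype (x axis), 5 libraries a group with mean and SD. In males the heterozygous mean lies below that of wild type for Egfl7, Flt1 and Abcc9 and above it for Vtn (2055 ± 425 against 1456 ± 158); the points of the genotypes overlap in both sexes for all 4 genes.

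Heterozygous fluoxetine males 3 and 4 stood apart over many genes, so their shifts were not particular to the vascular members. For 8 members both libraries lay below all 57 others: Ocln, Itm2a, Tek, Tie1, Slco1a4, Abcb1a, Sox17 and Rgs5. Sox17 had 92.4 and 91.3 normalised counts there, against a lowest value of 128 in the other 57 libraries. Itm2a, an endothelial membrane protein, had 844 and 951 against 1410 or more, and Rgs5 had 2321 and 2268 against 3263 or more. For 2 pericyte members both lay above: Pdgfrb had 1079 and 828, against at most 814 elsewhere, and Abcc9 had 421 and 446, against at most 372. A further 7 members had 1 of the 2 libraries above the rest, 4 had 1 below and 11 lay inside the range of the others. Over all 17901 genes, 10.9% had both libraries below and 14.5% both above, against 8 and 2 of the 32 members. Lists of glucocorticoid-induced and of hypoxia and endothelial activation genes also stood high in these libraries, with mean log2 deviations of 1.25 and 0.40 for the first list and 1.13 and 0.60 for the second, against at most 0.24 elsewhere. Olfactory bulb markers stood low there, at -1.68 and -1.73. Their part in the vascular values was not tested.

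**Figure D4:**
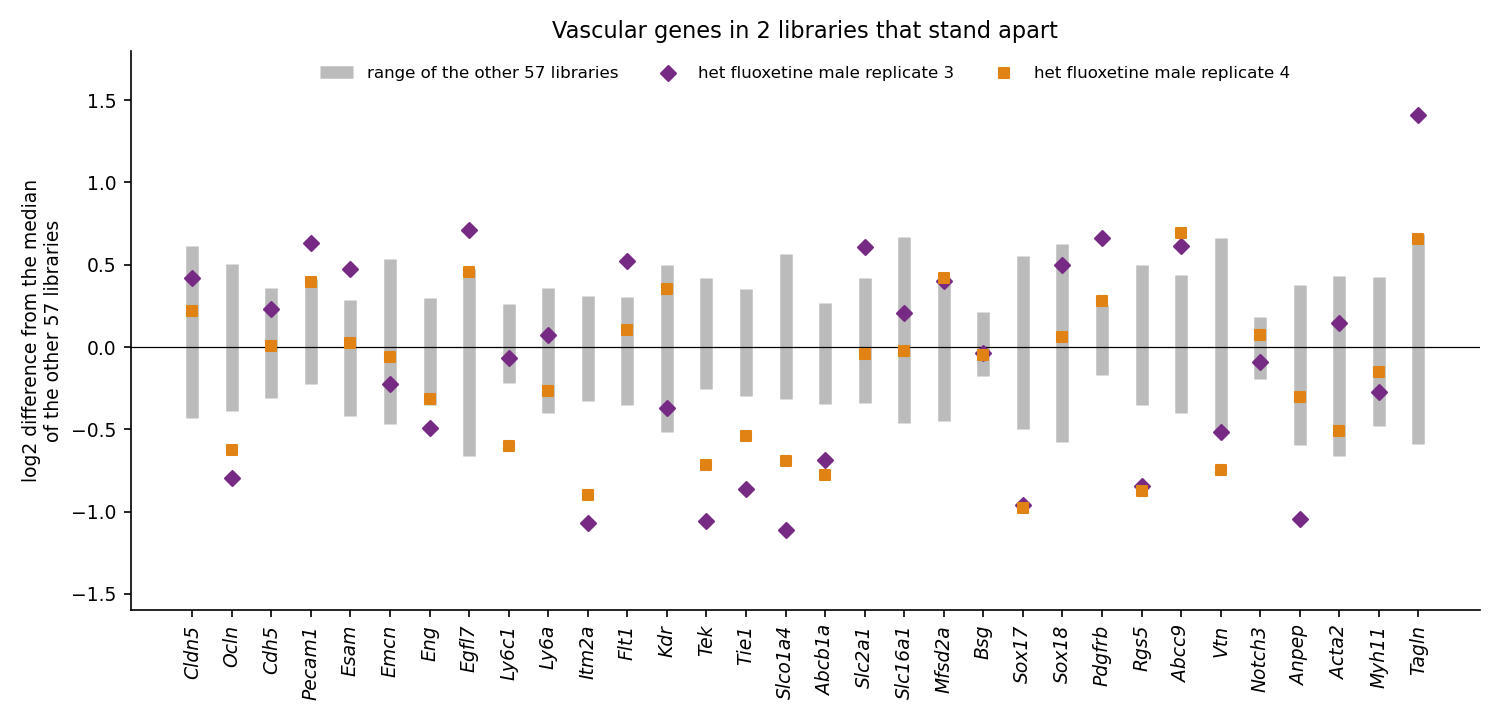
Log2 difference (y axis) of heterozygous fluoxetine males 3 (diamonds) and 4 (squares) from the median of the other 57 libraries, for the 32 members (x axis); grey bars span the other 57. Both symbols lie below the bar for 8 members, among them Sox17 and Rgs5, and above it for Pdgfrb and Abcc9.

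Across mice, 5 of 10 pairs of members, among them all 3 smooth muscle pairs, were correlated. Correlations were taken over the 59 libraries after removing each group's mean, with permutation p-values within groups adjusted over the pairs. Acta2 and Myh11 had Pearson's r = 0.75 and Spearman's rho = 0.73 (permutation, adjusted p = 0.0001, from the smallest p that 100000 draws can give, 1e-05). Leaving out the 2 libraries farthest from the median gave r = 0.70. Acta2 and Tagln had r = 0.57 and rho = 0.59 (permutation, adjusted p = 0.00123; r = 0.49 without the 2 farthest), and Myh11 and Tagln r = 0.49 and rho = 0.56 (adjusted p = 0.00806; 0.43). Cldn5 and Pecam1 had r = 0.52 and rho = 0.53 (adjusted p = 0.00123; 0.51), and Rgs5 and Acta2 r = 0.42 and rho = 0.40 (adjusted p = 0.00682; 0.40).

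The other 5 pairs did not pass. Cldn5 with Acta2, endothelium with smooth muscle, had r = 0.05 and rho = 0.03 (permutation, adjusted p = 0.748), and Cldn5 with Rgs5 r = -0.11 and rho = -0.08 (adjusted p = 0.58). Cldn5 with Flt1 had r = 0.23 and rho = 0.18 (adjusted p = 0.227), Vtn with Rgs5 r = 0.27 and rho = 0.19 (adjusted p = 0.215), and the pericyte pair Pdgfrb with Rgs5 r = -0.31 and rho = -0.06 (adjusted p = 0.316). Without heterozygous fluoxetine males 3 and 4 the 5 pairs that passed had r between 0.40 and 0.79. The points share their library, so differences in dissection enter both genes of a pair.

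**Figure D5:**
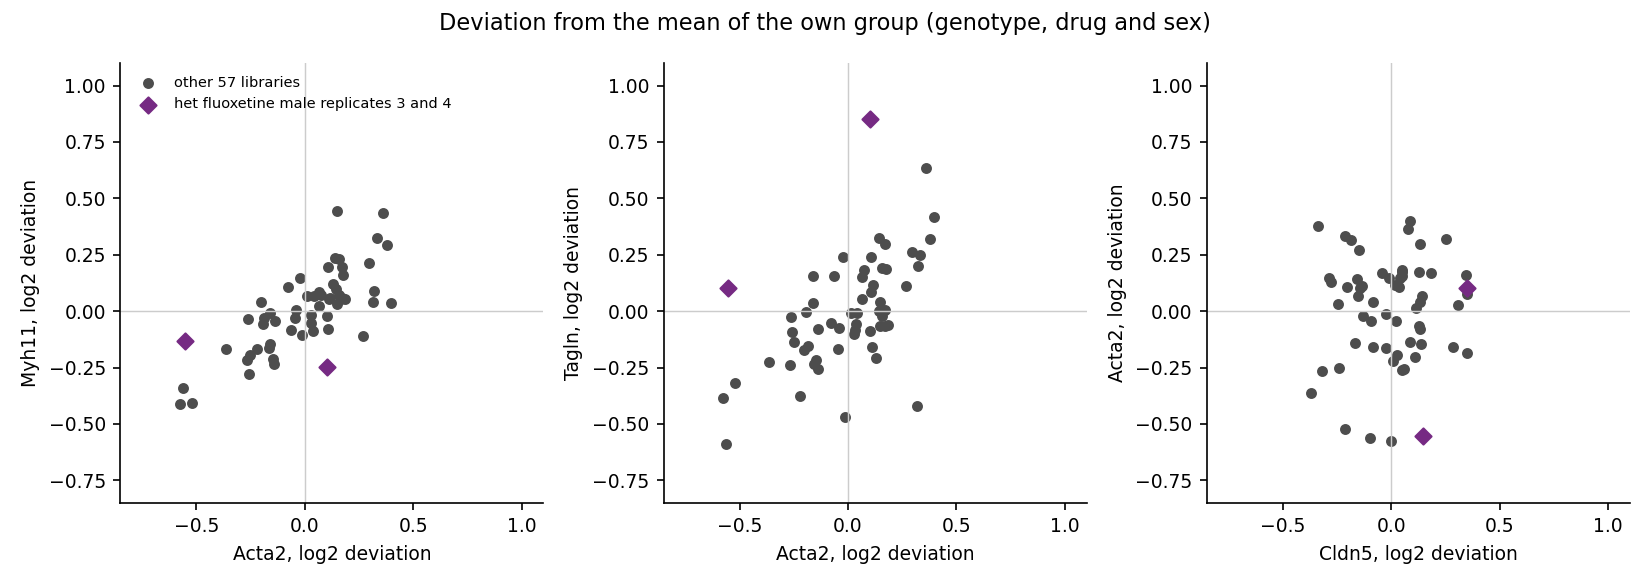
Deviation of each library from its group mean on the log2 scale, for Acta2 with Myh11, Acta2 with Tagln and Cldn5 with Acta2; diamonds mark heterozygous fluoxetine males 3 and 4. The points follow a rising line for the smooth muscle pairs (r = 0.75 and 0.57) and form a round cloud for Cldn5 with Acta2 (r = 0.05).

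Further lists of vascular genes, none of them members, were counted in the same way. With lithium over both genotypes limma called 0 of 37 other endothelial genes and 0 of 22 other mural genes. At an unadjusted p under 0.05 there were 5 and 6, and edgeR called 0 of either list. Of the mural genes 18 were negative, with a median of -0.10. Of 26 vascular ligands and receptors 1 was higher, against 1.16% of all genes: Edn1, the vasoconstrictor endothelin 1. It averaged 102 ± 18.3 normalised counts with lithium and 75.1 ± 9.41 with vehicle (SD, n = 20 each), 0.43 ± 0.07 higher (limma, adjusted p = 0.000236) in 20 of 20 libraries. Of 20 Wnt and beta-catenin genes of the barrier 2 were lower, against 0.966% of all genes. Ctnnb1, beta-catenin, averaged 16632 ± 555 with lithium and 18667 ± 1123 with vehicle, a difference of -0.16 ± 0.03 (limma, adjusted p = 0.000937), and the Wnt inhibitor Nkd1 differed by -0.14 ± 0.04 (limma, adjusted p = 0.0428). Both were below the matched vehicle mean in 20 of 20 lithium libraries; neither is particular to vessels.

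With fluoxetine 3 of 37 other endothelial genes were lower, against 1.64% of all genes, and 0 higher: the amino acid carrier Slc7a1 (-0.12, limma, adjusted p = 0.0253), the phosphatase Ptprb, which acts on Tie2 (-0.18, adjusted p = 0.0253), and the iron exporter Slc40a1 (-0.25, adjusted p = 0.033). Apln, the ligand apelin, fell to 504 ± 147 normalised counts, against 699 ± 173 with vehicle (-0.50 ± 0.12; limma, adjusted p = 0.012). Edn1 was 0.27 ± 0.07 higher (limma, adjusted p = 0.0362) and Notch4, an endothelial Notch receptor, 0.18 ± 0.05 higher (limma, adjusted p = 0.0403); these were 3 of 26 ligand and receptor genes, against 3.09% of all genes called in either direction. No other mural gene of 22 and no Wnt gene of 20 was called by limma or edgeR, with 4 and 5 at an unadjusted p under 0.05. Between genotypes over all treatments 7 of 37 other endothelial genes were lower and 0 higher, a share below the 21.4% of all genes called in either direction. Those of smallest p were Palmd (-0.24; limma, adjusted p = 0.0147), Slc7a1 (-0.08, adjusted p = 0.0193) and the sialomucin Podxl (-0.12, adjusted p = 0.0225). Apln stood at 538 ± 170 in heterozygous and 706 ± 122 in wild-type mice (-0.45; limma, adjusted p = 0.00515). In the same comparison 3 of 15 olfactory bulb markers were higher (median 0.62) and 6 of 8 excitatory neuron markers lower (median -0.20); their part was not tested.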

How the data were processed

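Polyadenylated RNA from the prefrontal cortex was sequenced with a stranded mRNA kit, per the labels' protocols. Salmon 0.11.2, R 3.6.0 and DESeq2 1.19.11 with GRCm38 are named in the submitters' processing notes, with no role or order; the strand setting of the counting is not given in the sources used here. The authors deposited normalised values, a signal per gene and library in which counts were divided by a size factor. Whole counts were recovered for 100% of values within 0.01 counts, although in 3 libraries the step was too near 1 to show this.

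The members and lists were chosen with earlier results of these data known. The analysis used log2(value + 1), a scale on which changes of low genes appear smaller, and the 17901 genes that reached 10 in 4 or more libraries. A linear model with 12 group means was fitted to the 59 libraries with limma 3.58.1 (R 4.3.3), with a trend on the mean and 47 residual degrees of freedom (groups by genotype, drug and sex), and p-values were adjusted over all genes within each comparison. Sexes were weighted equally. Fold changes are given with their SE and 95% intervals from the residual degrees of freedom. Alternatives were a pseudocount of 5, other filters and scalings, array weights, a replicate block, fewer libraries, tissue-marker covariates and edgeR 4.0.16 on the recovered counts. The olfactory bulb covariate combined with leaving out heterozygous fluoxetine males 3 and 4 was not planned beforehand. In each comparison, called members are named, and those of smallest p where fewer than 3 were called; from the other lists up to 3 called genes. Neighbouring gene Tcea2 was chosen after its values were seen. The test was checked on simulated counts with known changes, for genotype under vehicle and for each drug over both genotypes. It recovered 53% to 70% of changes of 1.25-fold and 76% to 86% of those of 1.5-fold, with 8 to 11 false calls. Differences of such sizes can thus go uncalled. Each simulated gene varied on its own, with no libraries that stood apart and no differences in other tissue. The changed genes, 100 for each fold, were drawn from all levels. The rates of recovery and of false calls need not hold for the real data or the members. Car9, Sele, Selp and Kcne2 of the lists were not analysed here. Gene positions come from GENCODE vM21 on GRCm38. Sox17, Slc2a1, Abcb1a, Notch3, Abcc9, Egfl7, Eng and Tagln overlap other annotated genes, whose reads may have been counted with theirs. Plots used Python 3.11.15 with pandas 2.3.3, numpy 2.4.6 and matplotlib 3.10.9.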

Additional observations from a re-analysis of the deposited data

Results flagged for a closer look

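In 192 sets of 1 member in 1 group of genotype and drug, 9 had a highest or lowest library whose gap to the next was large for the group's range; chance gives about 1 such set in 20. The gap divided by the range was 0.608 for Pecam1 (heterozygous lithium female 1 at 743 normalised counts, next 589.6) and 0.670 for Ly6a in the same library (501, next 391). It was 0.521 for Kdr (heterozygous fluoxetine male 4 at 823, next 633) and 0.468 for Pdgfrb (heterozygous fluoxetine male 3 at 1079, next 828). For Slc16a1 it was 0.519 at the low end of heterozygous fluoxetine (female 1 at 1108, next 1408) and 0.501 at the high end of wild-type vehicle (male 1 at 2419, next 1972). The others were Emcn at 0.530 (heterozygous vehicle male 1 at 128, next 154), Tie1 at 0.472 (wild-type lithium male 5 at 291, next 340.2) and Bsg at 0.509 (wild-type fluoxetine female 4 at 11800.1, next 10663).

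The vehicle genotype effect differed between the sexes by a direct test for Egfl7 (male minus female -0.63; limma, adjusted p = 0.0193) and for Flt1 (-0.34; limma, adjusted p = 0.0465). Neither passed with the olfactory bulb marker mean as a covariate, but in vehicle males that mean and the genotype cannot be told apart. Both calls were also lost with the leptomeningeal covariate and when only the compared groups were fitted. The Flt1 call was lost as well with TMM, quantile normalisation and edgeR.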

How the results depend on the processing

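Of 221 counts of called members under other settings, 186 were within 1.5 times the count reported and 35 moved; the cause was not tested. Of 39168 single-gene values, 0 called values changed sign and 1043 uncalled ones did. Between genotypes under vehicle the count, 0, became 9 with array weights and 1 with a filter of 100, quantile normalisation, the leptomeningeal covariate or without heterozygous fluoxetine males 3 and 4 (the 2 males); leaving out single libraries gave 0 to 1. Over all treatments it became 2 with array weights and 1 with quantile normalisation, edgeR, the leptomeningeal covariate or the replicate block, and ran from 0 to 3. The block changed no other member count by over 1.5 times. Numbers did not pair the mice: 29 of 145 same-numbered pairs correlated over 0.1, with a median of -0.019, and 8 of 59 libraries correlated best with their own number.

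Array weights gave 3 for the genotype difference under lithium, 3 for lithium in heterozygous mice, 7 for lithium across genotypes, 5 for fluoxetine in each genotype, 3 for the fluoxetine difference between genotypes, 15 in vehicle males and 12 for male minus female. Fitting only the compared groups gave 0 for fluoxetine in heterozygous mice and 0 for male minus female. Without the 2 males fluoxetine gave 1 in heterozygous and 4 in wild-type mice, and male minus female 5. The olfactory bulb covariate gave 10 for fluoxetine across genotypes and 0 in vehicle males and for male minus female; combined with leaving out the 2 males it gave 6 for lithium across genotypes and 0 for both vehicle results. The leptomeningeal covariate gave 10 for fluoxetine across genotypes, 9 for lithium against fluoxetine and 0 for male minus female, where TMM, quantile normalisation and edgeR gave 1.

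Leaving out single libraries gave 2 to 3 for lithium across genotypes, 1 to 2 for fluoxetine in wild-type mice (1 without female 4 or male 4) and 1 to 8 in heterozygous mice (7, 8 and 7 without fluoxetine males 1, 2 and 5; 1 without any of 15 others). Fluoxetine across genotypes gave 4 to 9 (9, 8 and 9 without those males, 8 without wild-type vehicle male 5). The fluoxetine difference between genotypes gave 0 to 2 (2 without heterozygous fluoxetine male 2). Vehicle males gave 3 to 9 (3 without heterozygous male 3 or 4, 9 without wild-type male 5) and male minus female 0 to 5 (0 without heterozygous male 3 or 4 or wild-type female 4). Lithium against fluoxetine gave 3 to 8 (6 and 8 without heterozygous fluoxetine males 1 and 5). Counting error was below the spread between mice for the members, but it was not small for all of them. As an SD on the log2 scale it was 0.065 against 0.087 for Notch3, and 0.117 against 0.220 for Sox18.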

Other observations

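Of 6 perivascular macrophage markers limma called 1 higher with lithium, against 2.12% of all genes called, and 2 higher with fluoxetine, against 3.09%. Lyve1, a hyaluronan receptor of perivascular macrophages and lymphatic endothelium, averaged 71.7 ± 15.5 normalised counts with lithium, 80.4 ± 13.6 with fluoxetine and 58.1 ± 9.17 with vehicle (SD, n = 20, 19 and 20). It was 0.28 higher with lithium (limma, adjusted p = 0.0219) and 0.45 higher with fluoxetine (limma, adjusted p = 0.000154), above the matched vehicle mean in 13 of 20 lithium and 19 of 19 fluoxetine libraries. Cd163, a haemoglobin scavenger receptor, averaged 93.9 ± 15.0 with fluoxetine and 75.2 ± 17.6 with vehicle, 0.34 higher (limma, adjusted p = 0.0108).

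Tcea2, a transcription elongation factor gene 8669 bases from Sox18 on chromosome 2, was looked at after its values were seen. It averaged 1122 ± 142 normalised counts with lithium and 902 ± 146 with vehicle (SD, n = 20 each), 0.32 ± 0.05 higher (limma, adjusted p = 0.000152). With fluoxetine it differed by 0.02 ± 0.05 (limma, adjusted p = 0.892), while Sox18 was higher with both drugs.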
